A study of Mus musculus with 11 samples.

Results

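The transcripts of 9 genes of the actin and contractile machinery were followed in mouse embryonic stem (ES) cells: Actb and Actg1, which encode the cytoplasmic actins, and Tagln, Acta2, Myl9, Tpm1, Tpm2, Cnn1 and Cnn2, which are best known from smooth muscle. The 9 were chosen by name, out of 29686 gene names in 5 single-cell tables and 12573 in a bulk table. All 9 had a column in at least 4 of the single-cell tables, the 2iLIF table being without one for Cnn1, and 4 of them (Actb, Actg1, Tpm1 and Cnn2) were rows of the bulk table; the other 5 were not analysed in bulk. The study asked how ES cells embedded in soft agarose microgels differ from cells on tissue-culture plastic, and how overexpression of plakoglobin, a catenin of cell junctions encoded by Jup, alters them. In bulk, 3 gel libraries and 3 plastic libraries were made by Smart-seq2 from about 1000 cells each of the line Rex1GFPd2 in 2iLIF, a medium with MEK and GSK3 inhibitors and LIF, the cytokine that sustains mouse ES cells. The single-cell libraries were made with inDrop, a droplet method that counts transcript molecules by unique molecular identifiers (UMIs), and each condition had 1 library. Wild-type cells of the line E14 were grown in 2iLIF on plastic (the 2iLIF library), in serum/LIF on plastic (the wild-type serum plastic library) and in serum/LIF in microgels (the gel library), and 2 plakoglobin lines in serum/LIF on plastic. Those lines, with genotypes PGHIGH and PGLOW, carry Jup under the constitutive CAG promoter at a high and a low level per their labels; they are called the libraries labelled JupHigh and JupLow here. Whether each is 1 clone, and which line they come from, is not given in the sources used here.

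Actin filaments and non-muscle myosin II form the contractile cortex and the stress fibres through which cells pull on their surroundings. Tropomyosins and calponins bind along the filaments, transgelin bundles them, and the myosin regulatory light chain switches the motor on when it is phosphorylated. Many of these genes are targets of serum response factor (SRF), whose coactivators of the MRTF family are held in the cytoplasm by monomeric actin and released when it polymerises, and which binds a DNA element called the CArG box.

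The bulk libraries held 636056 to 2578321 reads recovered from the deposited values, and the single-cell libraries 112 to 2889 cells, here barcodes with at least 1000 UMIs, with a median of 1731.5 to 2465 UMIs. The 10 pairs of single-cell libraries shared 0 whole barcodes, which carry a part particular to the library, and 27 to 603 deposited barcodes a pair once that part was removed; whether shared barcodes are shared cells was not tested. The gel table covers only part of its library: all of its 891 complete barcodes start with A, against 38.5% to 39.2% of the barcodes in the other tables, and its last row breaks off. Jup, the targeted gene, stood at 47.8 CPM (counts per 1000000 UMIs; exact Poisson 95% interval 41.5 to 54.8) in the library labelled JupHigh and at 37.9 CPM (31.1 to 45.7) in that labelled JupLow, so these intervals overlap and the labels are not settled by its count. The 2iLIF library had 46.7 CPM of Jup and the wild-type serum plastic library 36.7 CPM. Of the 8 ES cell markers, every one with a column was detected in each library, and the wild-type serum plastic table had none for Sox2. Nothing in the labels says whether replicates were separate cultures, so the bulk p-values measure the spread between these libraries, which may be technical. All single-cell intervals cover counting error only.

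The promoters of 7 of the 9 genes were in the RefSeq table of GRCm38.p6, each as 300 bases from 250 before to 50 after the start of transcription. The CArG box was searched in them because these genes were low and high in the same single-cell libraries; its pattern reads the same on both strands. A full match of all 10 positions was found for Actg1, Myl9 and Cnn2, whereas 1.63% of 32851 RefSeq promoters of the same length held one. Acta2 and Tpm1 had only matches with 1 position off, which 21.1% of the promoters have at least (full matches included), and Tpm2 and Cnn1 had neither in this window. A match is a description of the sequence, not evidence of binding. The 3 promoters with a full match and that of Acta2, the member with the largest difference in the gel comparison, are printed 5′ to 3′ with the matches in capitals. They lie at chr11:120348446-120348745 on the minus strand (Actg1), chr2:156775214-156775513 on the plus strand (Myl9), chr10:79988350-79988649 on the plus strand (Cnn2) and chr19:34255324-34255623 on the minus strand (Acta2).
Actg1: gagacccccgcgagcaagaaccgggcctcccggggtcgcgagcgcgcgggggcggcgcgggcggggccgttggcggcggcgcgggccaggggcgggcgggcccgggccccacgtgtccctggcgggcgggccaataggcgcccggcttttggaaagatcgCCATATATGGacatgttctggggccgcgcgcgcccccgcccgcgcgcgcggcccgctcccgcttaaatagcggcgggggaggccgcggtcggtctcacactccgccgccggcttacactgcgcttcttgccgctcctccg
Myl9: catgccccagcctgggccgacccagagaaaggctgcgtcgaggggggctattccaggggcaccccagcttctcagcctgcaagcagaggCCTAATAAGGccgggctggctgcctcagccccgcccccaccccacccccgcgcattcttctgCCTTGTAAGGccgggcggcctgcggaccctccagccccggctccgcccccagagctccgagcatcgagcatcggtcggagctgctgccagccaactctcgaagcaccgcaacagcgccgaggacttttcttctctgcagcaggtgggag
Cnn2: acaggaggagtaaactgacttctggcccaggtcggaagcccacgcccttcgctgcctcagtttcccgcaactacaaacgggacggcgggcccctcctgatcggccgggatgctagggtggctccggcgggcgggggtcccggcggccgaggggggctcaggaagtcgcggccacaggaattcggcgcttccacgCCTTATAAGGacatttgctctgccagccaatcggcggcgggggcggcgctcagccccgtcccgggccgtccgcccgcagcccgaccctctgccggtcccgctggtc
Acta2: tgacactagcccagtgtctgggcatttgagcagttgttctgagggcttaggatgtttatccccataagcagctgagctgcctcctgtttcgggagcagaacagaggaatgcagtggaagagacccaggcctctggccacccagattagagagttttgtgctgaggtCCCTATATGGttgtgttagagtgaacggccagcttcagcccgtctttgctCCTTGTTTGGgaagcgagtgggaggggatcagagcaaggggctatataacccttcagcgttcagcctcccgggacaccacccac
The full matches begin 90, 161 and 56 bases before the start in Actg1, Myl9 and Cnn2. In Acta2 the matches with 1 position off begin 84 and 34 bases before it, and Myl9 has a further one at 99 bases.

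The cytoplasmic actins were abundant in every single-cell library, and their balance differed between libraries. Actb (chromosome 5, 142903115 to 142906754, minus strand, in GRCm38 with GENCODE M21), the beta-actin gene, had 2500 CPM in the 2iLIF library, 2719 in the library labelled JupHigh, 2460 in the gel library, 4127 in the wild-type serum plastic library and 3679 in the library labelled JupLow. Actg1 (chromosome 11, 120345690 to 120348542, minus strand), the gamma-actin gene, had 785, 897, 2210, 2384 and 2265 CPM in the same order. Actb thus spanned a narrow range, while the Actg1 levels formed a low pair, 2iLIF and the library labelled JupHigh, and a high trio made of the other serum/LIF libraries. The ratio of Actb to Actg1 UMIs was 3.19 (exact binomial 95% interval 3.10 to 3.28) in 2iLIF and 3.03 (2.92 to 3.14) in the library labelled JupHigh. It was 1.73 (1.67 to 1.79) for wild-type serum plastic, 1.62 (1.57 to 1.68) for the line labelled JupLow and 1.11 (0.987 to 1.26) for the gel library. In the bulk plastic libraries, also in 2iLIF, the ratio of deposited values was 1.03, 1.04 and 1.10, so the high ratio was not seen in 2iLIF by both assays. Cell line and assay differ together there and cannot be told apart. Both genes have many near-identical processed copies in the genome, so their counts are uncertain where the counting could split reads among copies.

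The 7 contractile genes spanned a much wider range and kept nearly the same order of libraries. Summed, they took 49.0 CPM (44.4 to 54.0) in 2iLIF, 119 (109 to 130) in the library labelled JupHigh, 588 (495 to 695) in the gel library, 1654 (1598 to 1711) in the wild-type serum plastic library and 2112 (2060 to 2166) in the library labelled JupLow. No interval of these sums overlaps its neighbour's. The sum for 2iLIF lacks Cnn1. Over the 277 wild-type serum plastic cells whose barcodes start with A, as all in the gel table do, the sum was 962 CPM.

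Among the genes one by one, Acta2 (chromosome 19, 34241090 to 34255590, minus strand), the smooth muscle alpha-actin, had 0.362 CPM in 2iLIF on 3 UMIs, 8.82 CPM in the library labelled JupHigh and 8.47 CPM on 2 UMIs in gels. It had 499 CPM in the wild-type serum plastic library and 552 CPM in the library labelled JupLow. The library labelled JupHigh and the gel library therefore sat together far below the plastic libraries of wild type and of the line labelled JupLow in the same medium. Tagln (chromosome 9, 45929619 to 45936058, minus strand), which encodes the actin-bundling protein transgelin, had 0.241, 5.10, 119, 235 and 613 CPM in the order 2iLIF, labelled JupHigh, gel, wild type on plastic and labelled JupLow. Of its exonic bases, 62.4% are shared with the antisense gene Gm48529 and 5.43% with Pcsk7, and whether the counting used strand is not given in the sources used here. Cnn1 (chromosome 9, 22099216 to 22109630, plus strand), basic calponin, had 1 UMI in the library labelled JupHigh (0.232 CPM), 25.4 CPM in gels, 55.0 CPM in wild type on plastic and 61.5 CPM in the library labelled JupLow.

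The other 4 ranged as follows. Myl9 (chromosome 2, 156775420 to 156781658, plus strand), a myosin regulatory light chain, had 0.121, 6.50, 21.2, 51.5 and 56.3 CPM in that order, the last pair with overlapping intervals. Tpm2 (chromosome 4, 43514711 to 43523765, minus strand), beta-tropomyosin, had 0.362, 1.62, 29.6, 29.2 and 43.4 CPM. Tpm1 (chromosome 9, 67022590 to 67049406, minus strand), alpha-tropomyosin, was present in every library, at 41.4, 71.9, 305, 589 and 661 CPM. Cnn2 (chromosome 10, 79988584 to 79996062, plus strand), the calponin found also outside smooth muscle, had 6.52, 25.3, 80.4, 194 and 126 CPM and stood higher in wild type on plastic (175.5 to 214) than in the library labelled JupLow (113 to 139), as did Actb and not the other contractile genes. Tagln and Acta2 spanned the widest range over the libraries, and Actb the narrowest.

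**Figure D1:**
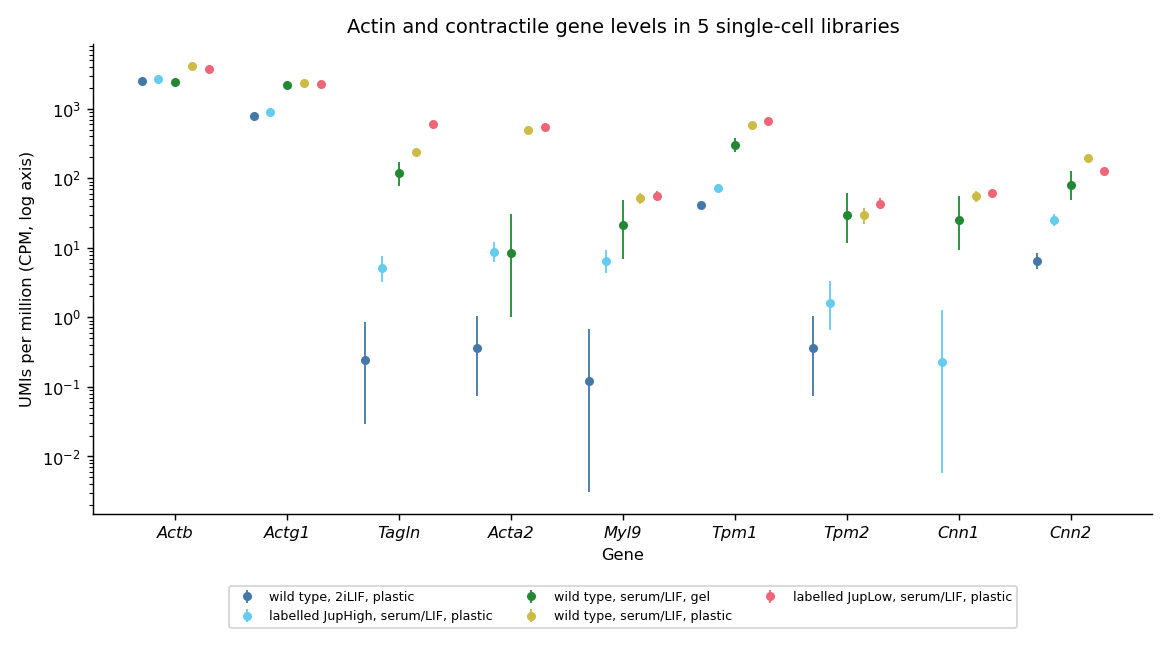
Level of each gene (x axis) in the 5 single-cell libraries in CPM on a log axis (y axis); points are library values and bars exact Poisson 95% intervals, 1 library per condition. Tagln runs from 0.241 CPM in 2iLIF to 613 CPM in the library labelled JupLow, while Actb stays between 2460 and 4127 CPM; Cnn1 has no column in the 2iLIF table.

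Microgels were compared with plastic in 2iLIF in the bulk libraries, where limma with Benjamini-Hochberg adjustment over 7867 tested genes called 3 of the 4 members: Actb and Cnn2 rose and Tpm1 fell in gel. Over all tested genes 36.9% were called, 18.2% higher and 18.6% lower in gel, so a call is common in this comparison. The same 3 members did not overlap between gel and plastic, as was so for 49.4% of all tested genes. Values are on the scale the authors deposited, read counts divided by a factor per library, and differences are of log2(value + 0.5), so those of low genes come out too small. In bulk RNA fewer cells of a type and less RNA per cell cannot be told apart.

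Actb had deposited values of 3279.6, 2471.6 and 3141 in gel and of 2148, 2056 and 2131 in plastic. The lowest gel library exceeded the highest plastic one, and the mean was 2964 ± 432 (SD, n = 3) against 2112 ± 49.0 (SD, n = 3). The log2 difference was 0.48 ± 0.099 (SE), with a limma adjusted p of 0.00113. Actg1 had 2281, 2338 and 1829 in gel and 2085, 1975 and 1945 in plastic. These values overlap, and the log2 difference of 0.09 ± 0.097 (SE) missed the threshold at a limma adjusted p of 0.467. The ratio of Actb to Actg1 was 1.44, 1.06 and 1.72 in gel and 1.03, 1.04 and 1.10 in plastic. It was not separated by an exact two-sided permutation test (p = 0.2, where 0.1 is the smallest p that 3 against 3 allow).

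Tpm1 had 24.8, 18.4 and 30.2 in gel, on 22, 15 and 22 reads, and 49.5, 40.3 and 31.9 in plastic, on 119, 103 and 21 reads. The groups do not overlap, though the highest gel library came close to the lowest plastic library. Its log2 difference was -0.72 ± 0.24 (SE), with a limma adjusted p of 0.0239. Cnn2 had 33.9, 24.6 and 33.0 in gel, on 30, 20 and 24 reads, and 19.1, 17.2 and 18.2 in plastic, on 46, 44 and 12 reads. The gel libraries all lay higher, and the log2 difference was 0.72 ± 0.24 (SE), with a limma adjusted p of 0.0259. Per kilobase of exon, the mean level was 1106 in gel and 788 in plastic for Actb, 809 and 753 for Actg1, 12.4 and 7.39 for Cnn2, and 3.78 and 6.25 for Tpm1. On that scale Tpm1 and Cnn2 were transcripts of low level in 2iLIF beside the cytoplasmic actins. Actb was called in all 17 alternatives tried. Tpm1 and Cnn2 both lost their call with DESeq2 (adjusted p = 0.0533 and 0.0726), without plastic replicate 1 (0.141 and 0.059) and without plastic replicate 2 (0.0642 and 0.0802). Tpm1 lost it also without gel replicate 2 (0.0945), and Cnn2 without gel replicate 1 (0.0837) or 3 (0.0638). With the libraries thinned to one depth, whether both kept their calls turned on how reads were drawn: they kept them when each read had the same chance (0.0287 and 0.0256) and lost them with edgeR's thinCounts (0.0604 and 0.376), the method run first.

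**Figure D2:**
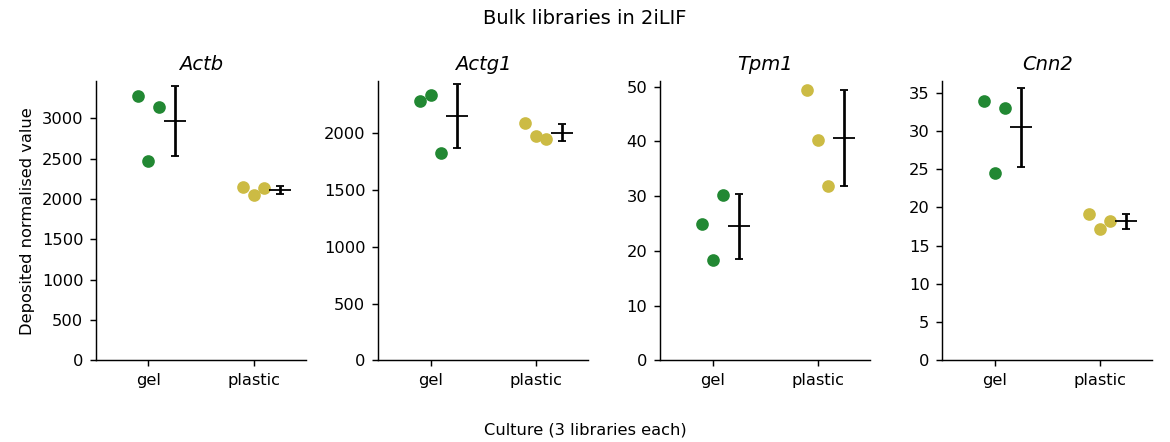
Deposited normalised value (y axis, starting at 0) of the 4 members in the bulk table, in 3 gel and 3 plastic libraries in 2iLIF (x axis); coloured points are libraries, black dashes with bars are mean ± SD. Actb and Cnn2 are higher and Tpm1 lower in every gel library, and Actg1 overlaps between the groups.

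Other genes of the pathway moved in both directions in bulk. Of 21 MRTF/SRF factors and targets 11 were tested; 4 rose, led by Actn1 (alpha-actinin, log2 difference 2.38), Flna (filamin A, 0.61) and Cald1 (caldesmon, 0.55), and 2 fell, Cnn3 (acidic calponin, -0.47) and Tpm3 (a further tropomyosin, -0.31). The median over the 11 was 0.17, against -0.02 over all tested genes. Of 25 genes of actin assembly and turnover 23 were tested, with a median of -0.09. There 7 rose, led by Tmsb10 (a thymosin that binds actin monomers, 1.24), Diaph1 (a formin, 1.07) and Pfn1 (profilin, 0.88), and 8 fell, led by Twf1 (twinfilin, -0.85), Actr2 (an Arp2/3 subunit, -0.66) and Capza2 (a capping protein subunit, -0.64). Of the 11 other actins and muscle genes only 3 were rows of the bulk table, and none of these passed the filter on low values. Of the 8 ES cell markers 5 rose, led by Utf1 (1.63), Esrrb (1.55) and Sox2 (1.51), and 2 fell, Nanog (-0.34) and Zfp42 (-0.32), and the one primitive endoderm gene tested, Lama1, rose (0.99); their part in the members' calls was not tested.

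In serum/LIF, wild-type cells in microgels had less of most members than wild-type cells on plastic. With 1 library each, the comparison has no replicate check and no test, and a gene was counted when the libraries differed by 2-fold or more and the higher one had at least 20 CPM. By that rule 4 of 9 members were lower in gel (Acta2, Myl9, Cnn1 and Cnn2) and 0 were higher, where 20.4% of 7444 genes differed that far, 13.2% lower and 7.21% higher. Acta2, at 8.47 CPM in gel, reached 20 CPM only on plastic and so could be counted only as lower. The median log2 ratio over the members was -0.99, against -0.05 over all 7444 genes. Acta2 had the largest difference, with 2 UMIs in gel and 1007 on plastic, a log2 ratio of -5.88 (exact binomial 95% interval -8.93 to -4.02). Myl9 stood at -1.28 (-2.94 to -0.02) and Cnn1 at -1.11 (-2.59 to 0.05), on 5 and 6 gel UMIs, the second inside the 2-fold bound in 6 of 9 alternatives, and Cnn2 at -1.27 (-2.02 to -0.61) on 19. Tagln (-0.99, -1.59 to -0.44), Tpm1 (-0.95, -1.31 to -0.61) and Actb (-0.75, -0.87 to -0.63) stayed inside the 2-fold bound. For Actg1 (-0.11, -0.24 to 0.02) and Tpm2 (0.02, -1.36 to 1.15) the interval includes 0.

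The plastic level of these genes was uneven over cells, which the counting intervals do not carry. By the first letter of the cell barcode, Tagln in wild type on plastic ranged from 115 CPM in 277 cells (A) to 385 CPM in 88 cells (T), and Acta2 from 196 CPM (A) to 1217 CPM (T). Set against only the plastic cells whose barcodes start with A, as those of the gel table do, 2 members were lower by 2-fold or more (Acta2 at -4.53 and Myl9 at -1.0), and the log2 ratio of Tagln became 0.04 and that of Tpm2 0.98. This alternative was chosen after seeing the data. Actb (-0.67) and Actg1 (-0.04) moved little under it, and their plastic levels ranged by letter from 3749 to 4431 CPM and from 2209 to 2515 CPM. Markers of other cell types moved with the members: the summed level of the 5 simple epithelium and trophectoderm genes with a column was 203 CPM in gel and 819 CPM on plastic, with Krt19, Krt7 and Cdx2 at 0 in gel, and that of 8 primitive endoderm genes 182 and 854 CPM, with Pdgfra and Foxa2 at 0 in gel. The 8 smooth muscle genes that are no members stood at 59.3 CPM (32.4 to 99.5) in gel, on 14 UMIs, and 96.6 CPM (83.5 to 111) on plastic, so these intervals overlap. Lmod1, Actg2 and Myocd were at 0 in gel, and at 4.96, 2.48 and 1.49 CPM on plastic. In gel 3 UMIs amount to 12.7 CPM, so a 0 there says little about genes this low. The fibroblast list stood at 4.23 CPM, on 1 UMI, in gel and 39.6 CPM on plastic. In gel Col1a1, Col1a2, Col3a1, Dcn and Pdgfrb were at 0 and Lum and Postn had no column, and on plastic Dcn, Lum and Postn were at 0. The ES cell list, 7 genes of which have a column in both tables, moved the other way, at 2985 CPM in gel (with Sox2) and 1981 CPM on plastic (without it). Of the 7, 6 were higher in gel, Zfp42 by 2-fold or more (1.20), and 1 was lower, Esrrb (-0.39, -1.37 to 0.47). The part of these markers in the result was not tested.

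Among other pathway genes in serum/LIF gels, 4 of 18 MRTF/SRF genes at 20 CPM or more were lower, led by Fhl1 (-2.85), Cald1 (-1.78) and Tagln2 (-1.58). The 2 higher were Vcl, the focal adhesion protein vinculin (2.80, 2.07 to 3.52), and Elk4, a partner of SRF (1.51, -0.30 to 3.04). Vcl had 131 CPM in gel and 18.8 CPM in wild type on plastic. The other plastic libraries in serum/LIF had 182.7 CPM (labelled JupLow) and 60.8 CPM (labelled JupHigh), so the gel level lay within the plastic range. The wild-type serum plastic table lacks genes that the other tables hold, so its counting may differ, which was not tested for Vcl. Of 24 actin assembly genes 2 were lower, the filament-severing Gsn (-1.80, -3.03 to -0.80) and, on 4 gel UMIs, Capza1 (-1.31, -3.22 to 0.09), a share below that of all genes. Of the 11 other actin and muscle genes only 2 reached 20 CPM, of which 1 was lower, Acta1, on 1 gel UMI (-2.30, -7.63 to 0.26). Acta1 and Fhl1 (8.47 CPM) stood so low in gel that they could be counted only as lower.

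The library labelled JupHigh had less of every member than the library labelled JupLow. Of the 9 members, 8 were lower by 2-fold or more and 0 higher, where 11.0% of 6950 genes differed that far, 8.40% lower and 2.63% higher. Tagln (5.10 CPM in the library labelled JupHigh), Acta2 (8.82), Myl9 (6.50), Tpm2 (1.62) and Cnn1 (0.232) reached 20 CPM only in the other library. At such levels a gene could be counted only as lower, so the calls of these members follow from the rule. The median log2 ratio over the members was -3.20, against -0.13 over all 6950. Tagln had 22 UMIs against 1763 (-6.91, -7.59 to -6.30) and Acta2 38 against 1588 (-5.97, -6.47 to -5.50). Cnn1, with 1 UMI against 177, had a ratio of -8.05 with a wide interval (-13.36 to -5.55), so its place among these is not settled. Of the others, Tpm2 stood lowest (-4.74, -6.09 to -3.66), then Tpm1 (-3.20, -3.38 to -3.03), Myl9 (-3.12, -3.75 to -2.53) and Cnn2 (-2.31, -2.64 to -2.0). Of the cytoplasmic actins, Actg1 was lower (-1.34, -1.39 to -1.28) and Actb was inside the 2-fold bound (-0.44, -0.47 to -0.40). With a pseudocount of 10 CPM the ratios were -5.37 for Tagln, -4.90 for Acta2, -3.03 for Tpm1, -2.80 for Cnn1, -2.20 for Tpm2, -2.01 for Myl9 and -1.94 for Cnn2, so the order after Tagln and Acta2 depends on that choice. The count was 8 of 9 under each of the 8 alternatives tried, all with the same bound of 20 CPM.

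**Figure D3:**
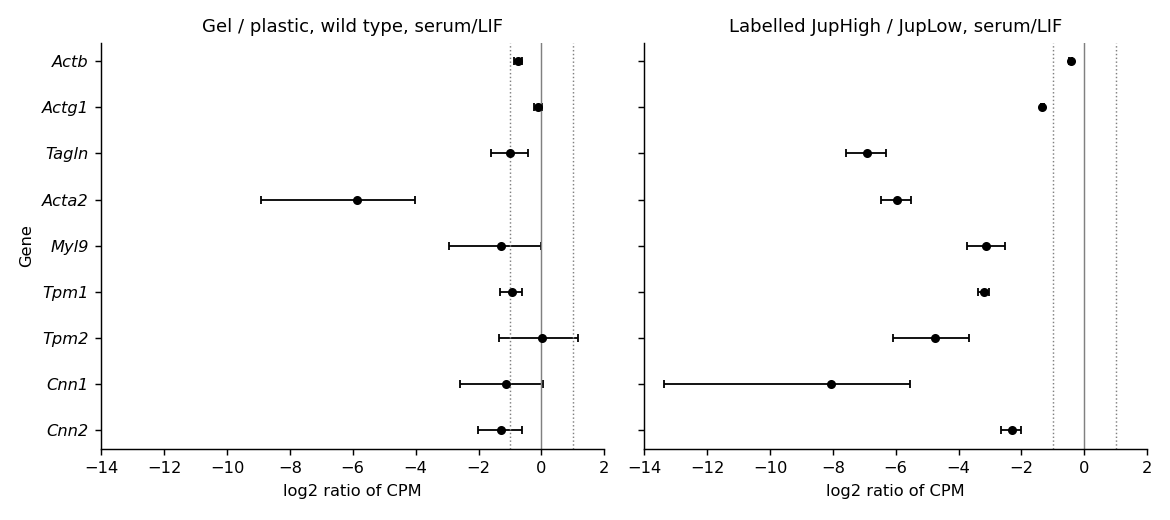
log2 ratio of CPM (x axis) for each gene (y axis) in serum/LIF gel over plastic in wild type (left) and in the library labelled JupHigh over that labelled JupLow (right); bars are exact binomial 95% intervals for counting error, the solid line marks no difference and dotted lines 2-fold. Acta2 is lowest on the left at -5.88, and on the right all 9 genes are below 0, from -0.44 (Actb) to -8.05 (Cnn1).

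Many of the MRTF/SRF genes were lower as well, where 8.40% of all 6950 genes were lower by the same rule and 2.63% higher. Of 16 MRTF/SRF genes 10 were lower in the library labelled JupHigh and 0 higher, led by Cald1 (-3.74), Csrp1, a LIM protein of the actin cytoskeleton (-3.07), and Tpm4 (-2.55), with a median of -1.42. Of 24 actin assembly genes 3 were lower, Gsn (-5.34), Arpc5 (-1.27) and Cfl2 (-1.16), and 1 was higher, Lima1, which encodes an actin-bundling LIM protein (1.09). That share is near the one of all genes, and the median was -0.56 against -0.13 over all genes. Of the 11 other actin and muscle genes only 3 reached 20 CPM in either library. These were lower: Acta1, skeletal alpha-actin, with 1 UMI against 194 (-8.18, -13.49 to -5.69), Smtn, smoothelin (-1.89), and Ppp1r14a (-1.34). Acta1 and Gsn (3.71 CPM) stood so low in the library labelled JupHigh that they could be counted only as lower. The simple epithelium and trophectoderm genes moved with the members, at 18.3 CPM in the library labelled JupHigh and 885 CPM in that labelled JupLow, with 4 and 5 of 6 detected and Krt7 and Elf5 without a column in the first, Elf5 in the second. The smooth muscle list without the members stood at 33.2 and 89.3 CPM, with 7 and 8 of 8 detected and Lmod1 without a column in the first. The fibroblast list stood at 6.26 and 28.5 CPM, with 5 and 6 of 8 detected. Col3a1, Lum and Postn had no column in the library labelled JupHigh, so its sum runs over fewer genes. Lum had none in the library labelled JupLow, where Dcn was at 0. The primitive endoderm list stood at 92.3 and 120 CPM, with 8 of 8 detected in both, where Col4a1 (-1.30) and Dab2 (-3.12) were lower and Lama1 (1.61) was higher. The ES cell list moved the other way, at 3807 and 2206 CPM, with 4 of 8 higher by 2-fold or more, led by Nanog (2.28), Esrrb (1.98) and Zfp42 (1.63), while Utf1 (-0.83, inside the 2-fold bound) was the one gene with less. Their part in the result was not tested, as for the gel. The library labelled JupHigh also differs from that labelled JupLow in whatever sets the lines apart besides Jup, which 1 library each cannot separate.

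Cells were uneven in the 7 contractile genes. With every cell thinned to 1000 UMIs, at least 1 UMI of the 7 was found in 4.36% of 2889 cells in 2iLIF (exact binomial 95% interval 3.65 to 5.17), 9.06% of 2153 cells (7.88 to 10.3) in the library labelled JupHigh and 33.9% of 112 cells (25.3 to 43.5) in gels. The shares were 44.7% of 725 cells (41.0 to 48.4) for wild-type serum plastic and 55.3% of 1200 cells (52.4 to 58.1) in the library labelled JupLow. Unthinned, they were 12.6%, 17.2%, 46.4%, 67.7% and 73.6%. The gel and wild-type plastic intervals overlap, and every other neighbouring pair is apart. Thinned to 2000 UMIs, those of wild-type serum plastic (55.5 to 64.9) and of the library labelled JupLow (64.1 to 71.3) overlap too. Free RNA can give UMIs to cells that do not express a gene, and no cell type known to lack the genes was at hand as a background, so no number of expressing cells is read from these shares. The 7 genes stood at 2805 CPM in barcodes under 500 UMIs of the library labelled JupLow and at 1626 CPM in those of wild-type serum plastic. At least 3 UMIs of the 7 were found in 0 of 2889 cells in 2iLIF, which allows a share of up to 0.104% by the limit of 3 counts, 6 cells (0.279%) in the library labelled JupHigh, 7 cells (6.25%) in gels, 94 cells (13.0%) in wild type on plastic and 242 cells (20.2%) in the library labelled JupLow. Of these 3, 5, 28 and 71 cells had exactly 3.

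**Figure D4:**
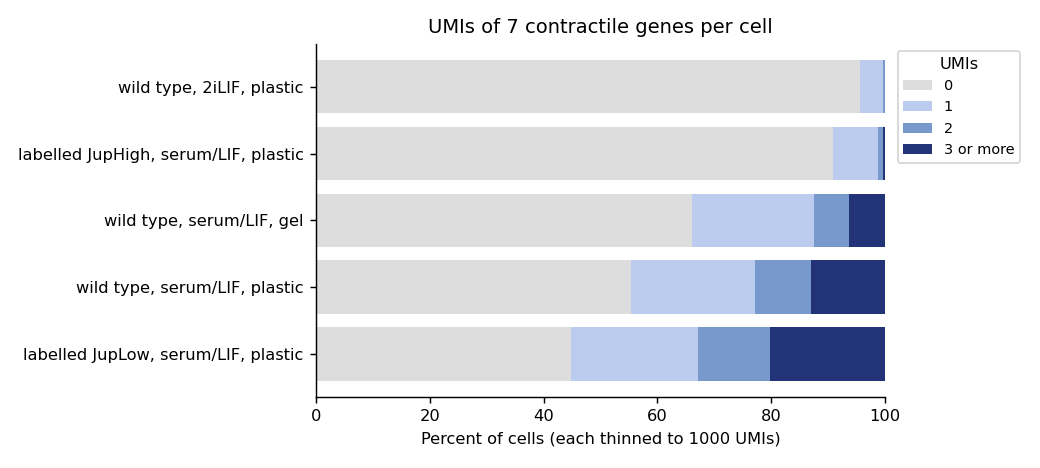
Share of cells (x axis, percent, each cell thinned to 1000 UMIs) with 0, 1, 2 or at least 3 UMIs of the 7 contractile genes (shades) in each single-cell library (y axis). The darkest part reaches 20.2% in the library labelled JupLow and 13.0% in the wild-type serum plastic library, and is empty in 2iLIF.

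Acta2 was the most uneven member in the library labelled JupLow and the wild-type serum plastic library. Its variance over cells was 18.1 times its mean in the library labelled JupLow and 11.1 times in the wild-type serum plastic library, where a value of 1 is that of pure counting. A single thinned cell of the library labelled JupLow held 83 Acta2 UMIs, and without the top cell the values were 9.07 and 9.20. Thinned to 2000 UMIs they were 15.3 and 27.9, so no order between these libraries can be read. For Tagln the ratio was 3.93 and 3.4, for Tpm1 2.02 and 2.52, and for Myl9 1.05 and 1.08. Myl9 was thus near the value of counting at this depth. Thinned to 2000 UMIs it had 1.28 in the library labelled JupLow and 1.12 in the wild-type serum plastic library, both above 1. The 120 cells with the most UMIs of the 7 genes held 57.8% of these in the library labelled JupLow, and the top 73 cells 65.5% in wild type on plastic, while the same numbers of cells richest in Actb held 32.5% and 33.4% of its UMIs. Tagln and Acta2 were found together in 9.0% of cells of the library labelled JupLow, where the product of their shares is 4.64%, and in 4.55% of wild-type plastic cells, where it is 1.53%. In the library labelled JupLow, Krt8 was at 1916 CPM in the cells with at least 3 UMIs of the 7 and at 92.2 CPM in the 537 cells with 0, and Zfp42 at 72.1 and 349 CPM. Pou5f1, the ES cell factor Oct4, stood at 332 and 408 CPM and Utf1 at 459 and 497 CPM, with no background level to set beside them. The wild-type serum plastic library showed the same directions between its 94 cells with at least 3 UMIs and its 401 cells with 0. There Krt8 had 2106 and 156 CPM, Zfp42 67.8 and 157 CPM, Pou5f1 376 and 477 CPM and Utf1 359 and 446 CPM.

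The genes whose counts ran closest to the 7-gene sum over cells were sought in the library labelled JupLow among 3286 genes with a UMI in at least 5% of thinned cells. Vim, the intermediate filament vimentin, had a Pearson r of 0.50 over 1200 cells, Tmsb4x, thymosin beta-4, 0.49, Tceal9 0.43, Cryab, a small heat shock protein, 0.42, and Gsn 0.38. The top cell held 99 UMIs of the 7 genes, where the mean was 1.98. These r values and their order were not recomputed without that cell. In wild type on plastic (725 cells) the same genes had 0.60, 0.55, 0.41, 0.16 and 0.34, so Cryab followed the sum less closely there. In 2iLIF, where the sum is mostly 0, all 5 lay between -0.03 and 0.01. In the library labelled JupHigh r ran from 0.02 (Tmsb4x) to 0.38 (Gsn), and in gels from 0.04 (Vim) to 0.30 (Tmsb4x), with no value for Cryab, which had no UMI there. Gsn had a UMI in 0.418% of thinned cells of the library labelled JupHigh, against 10% in that labelled JupLow. Its r in the library labelled JupHigh thus rests on few cells. These values describe cells of 1 library each, which share its preparation and depth.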

How the data were processed

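The bulk table holds a signal per gene and library: read counts that the authors had scaled by a single factor for each library. The deposited values themselves show this, since 100% were whole multiples of 1 read within 0.01. Rows without a gene name (15, named by digits alone, at 0.125% to 0.191% of a library's values) were left out. limma 3.58.1 in R 4.3.3 was run with an intensity trend on log2(value + 0.5) after edgeR's filter on low values, with Benjamini-Hochberg adjustment at 0.05. Alternatives on the recovered reads used edgeR 4.0.16 and DESeq2 1.42.0. Thinning to one depth was first run with edgeR's thinCounts and a target size; after its values were seen it was replaced by keeping each read with the same probability, because repeated draws of the first had 3.86 times the binomial variance (0.997 for the second). Both are given. A test on simulated data had 4-fold changes in 200 of 7867 genes: 99.5% of these were called, 2.93% of calls were false, and 0 were called when nothing changed. The members differed by 1.07- to 1.65-fold, and 36.9% of genes were called in the data. Changes that small or that common were not simulated, so these shares do not carry over to them. Replicate pairs differed by more than sampling noise (chi-square per degree of freedom 1.58 to 2.20).

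The single-cell tables hold whole UMI counts that the authors deposited without normalization. Tools named in the submitters' processing notes are FastQC, STAR, featureCounts, DESeq2 and Scanpy, with builds mm10 and GRCm38; their versions and roles are not given in the sources used here. Cells are barcodes of 1000 UMIs or more, and no doublet caller was run. Left out were barcodes that begin and end in 8 G, and unnamed columns, which held 0.00509% to 0.499% of UMIs. CPM divides a gene's UMIs by the library total of named genes. Levels carry exact Poisson 95% intervals, and ratios and shares exact binomial (Clopper-Pearson) ones; with 1 library per condition no test was made. Of the tables' genes only those with a column in both libraries entered a ratio, and a library without UMIs was set at 3 UMIs.

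The members and gene lists were chosen with earlier results of these data known. Named were all 9 members, at most 3 genes per list, direction and comparison by size of difference, and the 5 genes most alike. The results of 1 gene list are not reported here. The wild-type serum plastic table lacks genes that the other tables hold (Sox2, Myl12a), so its counting may differ. For the second bulk plastic library the replicate number of the title was used, from which its description differs.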

Additional observations from a re-analysis of the deposited data

Results flagged for a closer look

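Actb and Cnn2 differed in direction between the gel comparisons. In 2iLIF, where all gel values were above all plastic values, the log2 differences were 0.48 for Actb and 0.72 for Cnn2. Gel over plastic in serum/LIF, from single cells, gave log2 ratios of -0.75 and -1.27. Medium, cell line and assay differ together between these comparisons and cannot be told apart, and the difference itself was not tested.

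The 7 contractile genes also had UMIs in barcodes under 500 UMIs, which entered only the alternative with all deposited barcodes. Their summed level there was 171 CPM in the library labelled JupHigh, 2805 CPM in that labelled JupLow, 416 CPM in the gel library and 1626 CPM in the wild-type serum plastic library. The libraries thus stood in the same order as for cells, and the 2iLIF table has 1 such barcode.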

How the results depend on the processing

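In bulk, the 4 members kept their direction in all 17 alternatives, and the count of called members (3) became 1 with DESeq2 and ranged from 1 to 3 over the libraries left out in turn. With the replicate number as a block, 3 members and 2982 genes were called, against 2900 genes without the block. Same-numbered gel and plastic libraries did not deviate together (correlations -0.05, 0.02 and 0.02), so no pairing by number was seen. So few libraries, 1 of them with an uncertain replicate number, cannot show that there was none. Thinned to 636056 reads with the same chance for each read, 3 members (Tpm1 -0.80, Cnn2 0.98) and 2357 genes were called. Thinned with edgeR's thinCounts, 1 member (Tpm1 -1.13 and Cnn2 0.45 lost their calls) and 1248 genes were called; this was the method first run, and the other replaced it after these values were seen, because its draws had 3.86 times the binomial variance. In serum/LIF single cells the count of members lower in gel (4) became 7 with all deposited barcodes, 5 and 3 with cells of at least 500 and 2000 UMIs, 3 without barcodes above 3 times the median, 2 with a pseudocount of 10 CPM and 2 with only plastic barcodes starting with A; the sign changed for Tpm2 with cells of at least 500 UMIs (-0.56) and with all barcodes (-0.89), for Actg1 with cells of at least 2000 UMIs (0.0623), and for Tagln with plastic barcodes starting with A (0.0442, an alternative chosen after seeing the data). For JupHigh over JupLow no sign changed in the 8 alternatives. The share of cells with a UMI of the 7 genes rises with depth: without thinning it was 12.6% in 2iLIF, 17.2% in the library labelled JupHigh, 46.4% in gels, 67.7% for wild-type serum plastic and 73.6% in the library labelled JupLow, and thinned to 2000 UMIs it was 8.97%, 17.6%, 57.8%, 60.3% and 67.8%. In gels 3 UMIs amount to 12.7 CPM, which limits what its 112 cells can show.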
